A study of Mus musculus with 14 samples.

Results

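The gene Irak4 lies on chromosome 15 of mm10, from 94543643 to 94581815, and the genes described here are its chromosomal neighbours in mouse hippocampus. They are the GENCODE M21 genes, Irak4 left out, that lie wholly between 89.5 and 99.6 Mb and reached at least 10 counts over 14 libraries. Of 201 such genes in the interval, 160 reached that count, among 38070 genes tested in all. The remaining 41 had at most 9 counts in total, 18 of them 0 counts, and the lowest total among the 160 was 11. Protein-coding genes made up 90 of the 160, followed by 20 processed pseudogenes, 15 long intergenic RNAs and 13 antisense RNAs. Of the 160, 46 began before Irak4 and 114 after it.

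IRAK4 is the kinase that passes signals from IL-1 receptors and most Toll-like receptors, through the adaptor MyD88, to NF-kB. A gene altered in embryonic stem cells is carried through breeding together with the stretch of chromosome around it. Neighbours of the altered gene are thus inherited with the mutation, while genes on other chromosomes are passed on independently of it. A change in a mutant mouse can belong to the altered gene, to its linked neighbours or to another difference between the lines. The interval around Irak4 is where the linked genes lie.

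Hippocampal RNA was taken from mice of 4 groups, all 10 months old, and each mouse gave 1 library. MRL denotes B6.MRL-Fas lpr/J mice, which carry the lpr mutation of Fas (n = 4), and MRL-IRAK4-KD denotes the same mice crossed with IRAK4 kinase-dead mice (n = 4). C57BL/6 mice had neither mutation (n = 3), and IRAK4-KD mice carried the kinase-dead allele with intact Fas by their label (n = 3). All groups were on a C57BL/6 background, and the C57BL/6 mice were purchased while the other 3 groups came from a separate laboratory. The stem cells behind the kinase-dead allele and the number of backcrosses are not given in the sources used here, so the length of linked chromosome is not known.

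Libraries held 279941472 to 572398312 counts. Values of single libraries are CPM, counts scaled to a common library size after TMM scaling of the libraries. All tests used edgeR's quasi-likelihood method in 1 fit of the 4 groups, with p adjusted by the Benjamini-Hochberg method over all genes tested, and changes are fitted log2 changes with their standard error (SE). The 2 comparisons, MRL-IRAK4-KD against MRL and IRAK4-KD against C57BL/6, share no library, and their average is called the mean change. Replicates were separate mice, though the pairing of groups by litter or cage is not given in the sources used here.

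Irak4 was read first. It had 2.14 to 2.72 CPM in MRL, 1.54 to 2.24 in MRL-IRAK4-KD, 1.81 to 2.36 in C57BL/6 and 2.04 to 2.53 in IRAK4-KD libraries, and its mean change was -0.09 (SE 0.13, edgeR adjusted p = 0.89). The groups overlapped, and the count of a gene does not show a kinase-dead allele. The protein-coding transcript Irak4-202 had 9 counts in MRL-IRAK4-KD replicate 4 and 253 to 689 counts in the other 13 libraries.

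**Figure D1:**
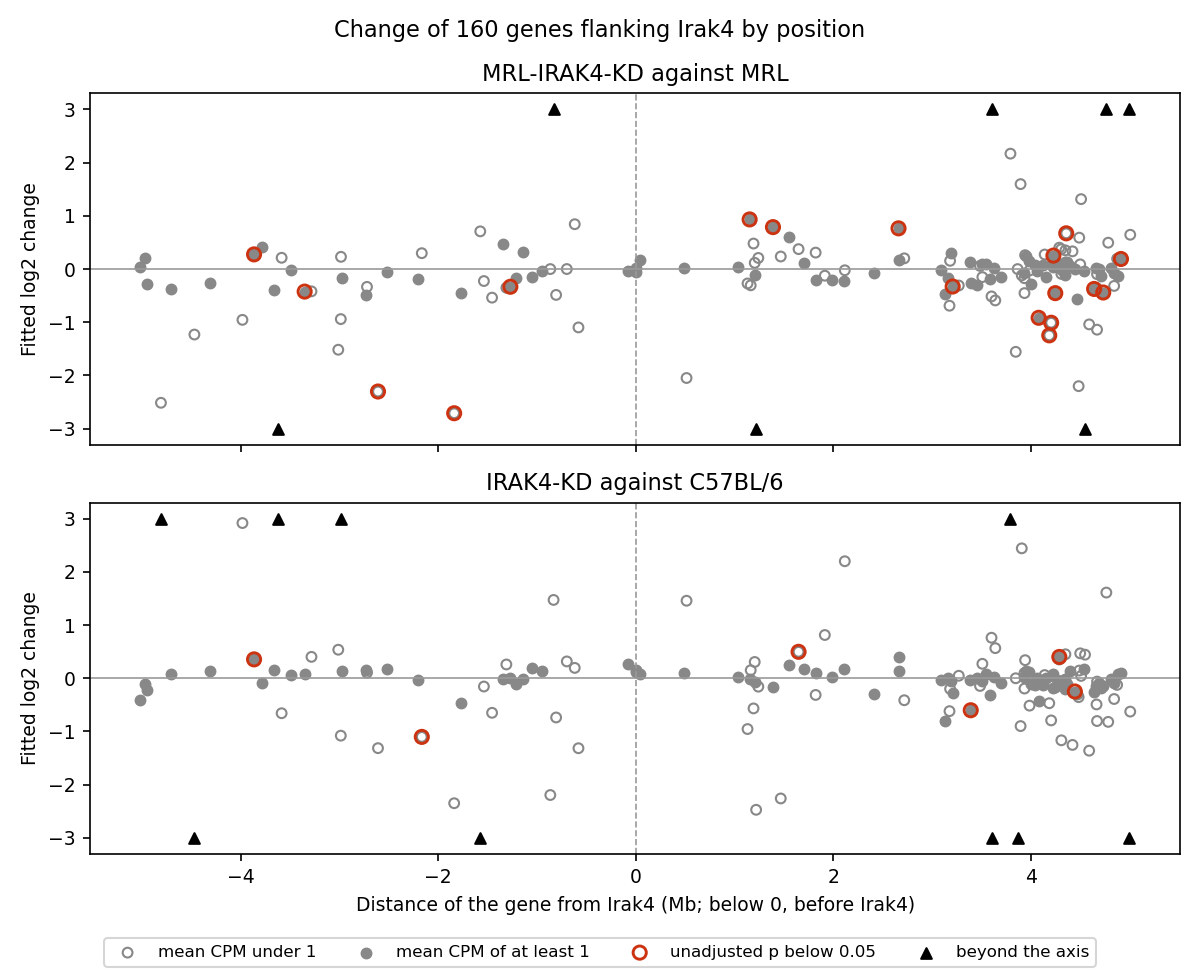
Fitted log2 change of each of the 160 genes (y axis) against its distance from Irak4 in Mb (x axis, negative before Irak4), with MRL-IRAK4-KD against MRL above and IRAK4-KD against C57BL/6 below. Filled points are the 83 genes averaging 1 CPM or more, open points the 77 below it, red rings an unadjusted p below 0.05, and triangles the 7 (above) and 9 (below) genes beyond the axis at 3; red rings stand on both sides of Irak4 and the 13 genes nearest to it, within 1 Mb, have none.

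Of the 14 libraries, 2 were doubtful. In the library labelled IRAK4-KD replicate 3 the full-length Fas transcript was at 0 counts, as in all 8 lpr libraries, against 345 to 584 counts in the other 5 libraries without lpr, which goes against its label. MRL-IRAK4-KD replicate 4 stood apart from the other 13 libraries on the first principal component, and its summed choroid plexus markers, transthyretin (Ttr) foremost, reached 7758 CPM against 65.1 to 1828 CPM elsewhere. This library was the highest or the lowest of the 14 for 83 of the 160 genes (51.9%), as for 51.2% of all genes tested. Other markers moved as well. The 6 microglial markers summed to 311 to 403 CPM in MRL and 284 to 303 CPM in MRL-IRAK4-KD libraries, without overlap, and to 260 to 278 CPM in C57BL/6 and 256 to 282 CPM in IRAK4-KD libraries. The 6 striatal markers reached 344 CPM in IRAK4-KD replicate 3 and at most 127 CPM elsewhere, and the 6 pituitary markers 87.1 CPM in MRL replicate 3 and at most 6.17 CPM elsewhere. Their part in the results was not tested. All 7 hippocampal marker genes were present. They summed to 649 to 1135 CPM in MRL, 937 to 2107 in MRL-IRAK4-KD, 789 to 1034 in C57BL/6 and 1041 to 1364 in IRAK4-KD libraries. The C57BL/6 and IRAK4-KD ranges did not overlap. Zbtb20 alone gave 1509 CPM of the sum in MRL-IRAK4-KD replicate 4. MRL replicate 1 was the highest of the MRL libraries for each of these markers except Wfs1. What these differences contribute to the results was not tested. Main results are given with and without these 2 libraries, and in whole tissue fewer cells of a type and less RNA per cell cannot be told apart.

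Irak4 shares its upstream region with Pus7l and its end with Twf1. Pus7l, which encodes a pseudouridine synthase-like protein, is on the opposite strand and begins 95 bases before Irak4, so that both genes start from the same short stretch. Twf1, which encodes the actin-binding protein twinfilin-1, runs toward Irak4 from the other side and shares 3865 bases with its end. Whether counting used strand is not given in the sources used here, so reads from the shared bases cannot be assigned with certainty. The stretch between the Irak4 and Pus7l starts is shown because any change there would bear on both genes. The region before Cpne8 is shown because that gene alone had an unadjusted p below 0.05 in the same direction in both comparisons. This held in the fit of all 14 libraries and not without both doubtful libraries. Sequences are from RefSeq on GRCm38.p6, 5′ to 3′ on the strand named, and 88 of the 160 genes matched that table by symbol. Capitals mark CCAAT and the GC box GGGCGG, searched on both strands.
Irak4 and Pus7l, chr15:94543548-94543642, plus strand: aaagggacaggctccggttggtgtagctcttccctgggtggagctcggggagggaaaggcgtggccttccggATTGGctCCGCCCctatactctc
Cpne8, chr15:90679433-90679638, minus strand: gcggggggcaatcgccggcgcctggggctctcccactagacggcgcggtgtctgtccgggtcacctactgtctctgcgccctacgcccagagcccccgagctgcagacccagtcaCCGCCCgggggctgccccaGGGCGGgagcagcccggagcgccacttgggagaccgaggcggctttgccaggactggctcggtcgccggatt
The Irak4 and Pus7l stretch held 1 CCAAT and 1 GC box, both on the minus strand, and 5 CpG at 63.2% GC. Of all 32851 RefSeq promoters, 18.1% held a CCAAT and 24.1% a GC box in the 95 bases before the start. The 206 bases before Cpne8 held no CCAAT, 2 GC boxes and 21 CpG at 73.3% GC, where 31.3% of promoters held a GC box in a stretch of that length and the median was 5 CpG. These matches describe the letters and not the binding of a factor.

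None of the 5 nearest protein-coding genes on each side of Irak4 passed the test in any comparison. On the side before Irak4, Pus7l had 2.58 to 3.41 CPM in MRL, 1.88 to 3.33 in MRL-IRAK4-KD, 2.58 to 2.62 in C57BL/6 and 2.54 to 3.07 in IRAK4-KD libraries. Its mean change was 0.03 (SE 0.13, 95% interval -0.25 to 0.31), and its sign turned when single mice were left out. Adamts20, a secreted metalloprotease 0.0782 Mb away, had a mean change of 0.12 (SE 0.18), which was 0.014 without IRAK4-KD replicate 3. That of Prickle1, a planar cell polarity protein 0.948 Mb away, was 0.05 (SE 0.09). The next pair of genes, Pphln1 and Zcrb1, start head to head with 15 bases between them. Pphln1 encodes periphilin-1, which takes part in silencing chromatin, and Zcrb1 a zinc finger RNA-binding protein of the minor spliceosome. Pphln1 had 34.4 to 35.5 CPM in 3 of the MRL-IRAK4-KD libraries and 9.77 CPM in replicate 4, while Zcrb1 had 44.2 to 49.6 CPM in those 3 libraries and 97.2 CPM in replicate 4. This library was thus the lowest of the 14 for Pphln1 and the highest for Zcrb1. Without it, the mean change of Zcrb1 was -0.01 in place of 0.16.

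On the side after Irak4, Twf1 had 45.3 to 55.5 CPM in MRL, 43.3 to 53.9 in MRL-IRAK4-KD, 46.6 to 52.7 in C57BL/6 and 53.9 to 56.8 in IRAK4-KD libraries. The IRAK4-KD libraries all lay above the C57BL/6 libraries, by 0.15 (SE 0.11, unadjusted p = 0.17), and the lpr groups overlapped. Tmem117, a membrane protein 0.0474 Mb from Irak4, had a mean change of 0.12 (SE 0.10). Nell2, a secreted protein with EGF repeats found in excitatory neurons, had the highest level of these 10 genes, at 366 to 743 CPM over the 14 libraries, and a mean change of 0.06 (SE 0.14). The homeobox gene Dbx2 had a mean change of 0.04 (SE 0.11), which turned negative by limma-voom and without MRL-IRAK4-KD replicate 4, and that of Ano6, a phospholipid scramblase and ion channel of the anoctamin family, was -0.09 (SE 0.08). Over these 10 genes the 95% intervals of the mean change lay between -0.44 and 0.51. Their 2-sided exact permutation p, which can be no lower than 0.00143 here, was between 0.157 and 0.986.

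**Figure D2:**
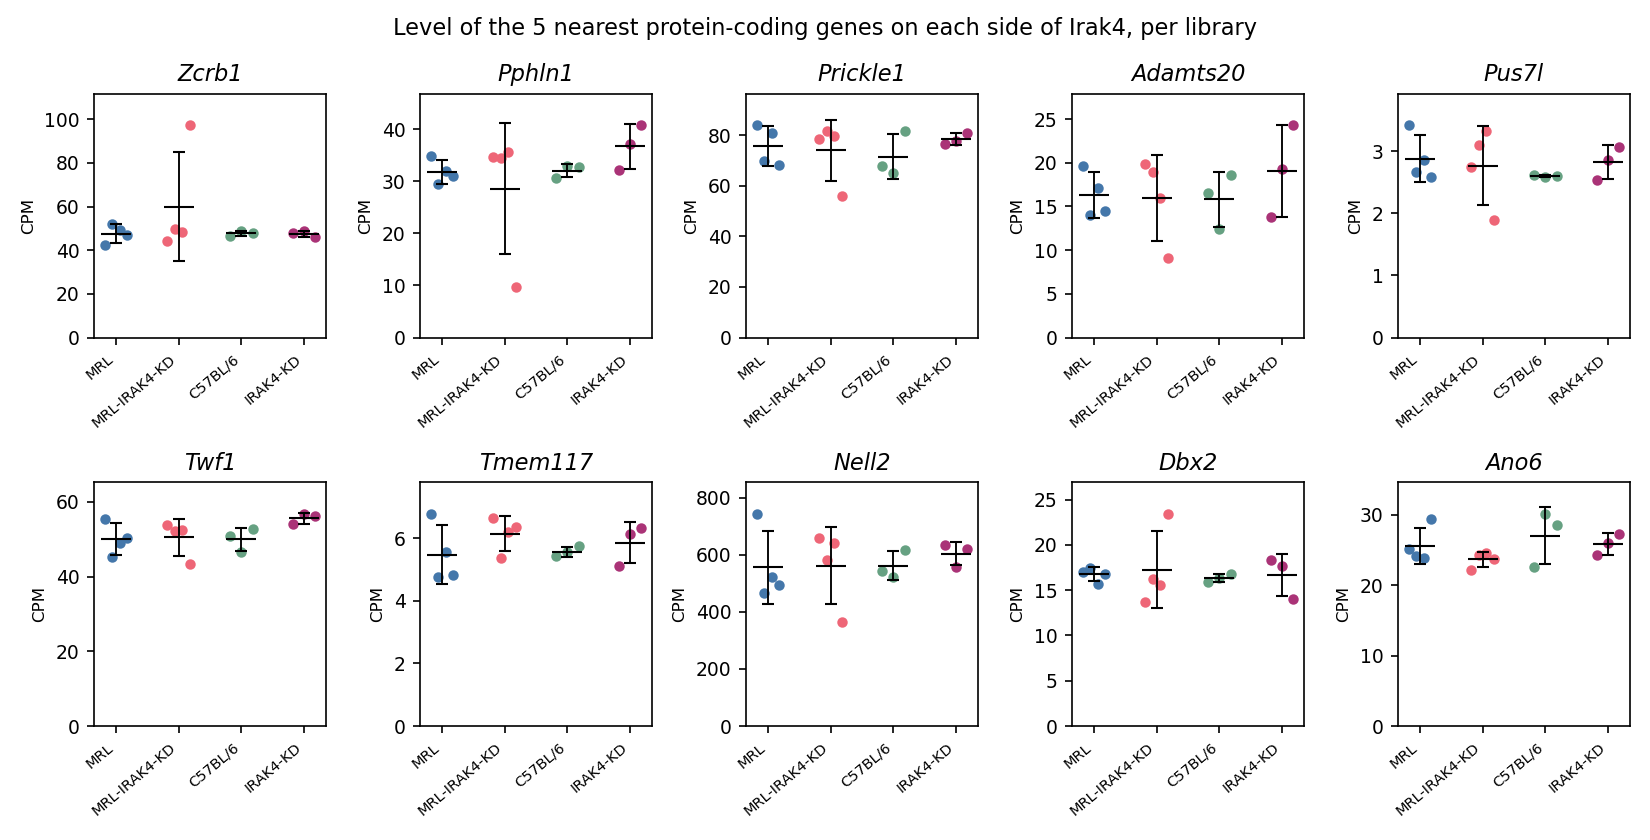
CPM (y axis, from 0) of the 5 nearest protein-coding genes before Irak4 (top row) and after it (bottom row) in the 4 groups, with 1 point per library, a horizontal line at the mean and bars of 1 SD. The groups overlap for each gene except Twf1, whose 3 IRAK4-KD libraries lie above the 3 C57BL/6 libraries, and 1 MRL-IRAK4-KD library sits apart for Zcrb1 (97.2 CPM) and Pphln1 (9.77 CPM).

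Over the whole interval, no gene passed an adjusted p of 0.05 in either comparison. In MRL-IRAK4-KD against MRL, 0 of 160 genes were called where 0.0972% of all genes tested were, and 20 of 160 (12.5%) had an unadjusted p below 0.05 where 11.4% of all genes did. Of these 20 genes, 9 were higher and 11 lower in the mutant. In IRAK4-KD against C57BL/6, 0 were called against a background of 0.147%, and 7 (4.38%) had an unadjusted p below 0.05 against a background of 3.8%. For the mean change, 0 were called against 0.213%, and 18 (11.2%) had an unadjusted p below 0.05 against 8.86%. The shares in the interval were thus near those of all genes, and the lowest adjusted p of the mean change was 0.28. By DESeq2, 2 of the 160 genes passed for the mean change, Amigo2 and the noncoding 4833422M21Rik, where 1.34% of all genes did. By limma-voom with quality weights 1 did, Amigo2, where 1.08% of all genes did. Without both doubtful libraries 0 of 158 genes were called by edgeR, and the shares at an unadjusted p below 0.05 were 8.86% on the MRL background, 5.06% without lpr and 14.6% for the mean change, against 8.73%, 5.67% and 10.9% of all genes. Without IRAK4-KD replicate 3 alone, 1 of 158 genes (0.633%) was at an unadjusted p below 0.05 in the comparison without lpr, against 2.68% of all genes.

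The median change over the 160 genes was -0.03 in MRL-IRAK4-KD against MRL, -0.02 in IRAK4-KD against C57BL/6 and -0.03 for the mean change, against -0.002, -0.008 and -0.004 over all genes tested. The direction matched between the comparisons for 79 of 160 genes (49.4%), where 51.4% of all genes tested matched. Groups did not overlap for 8 genes (5%) on the MRL background and 23 genes (14.4%) without lpr, against 5.26% and 11.2% of all genes. No gene of the interval separated all 7 mutant from all 7 intact libraries, where 0.444% of all genes did. The difference between the changes in the 2 backgrounds was called for 0 genes, with 5 at an unadjusted p below 0.05, against 0.00263% and 4.17% of all genes. Between MRL and C57BL/6, which differ in lpr and not in Irak4, 0 genes were called and 11 had an unadjusted p below 0.05, against 0% and 5.55% of all genes.

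How tightly these values bound a change depended on the level of the gene. For the 83 genes averaging 1 CPM or more, the median SE of the mean change was 0.12, and the 95% interval lay within 1 on the log2 scale for 78 and within 0.5 for 59. The 5 whose interval passed 1 were Gm49169, 2610037D02Rik, Endou, Rnd1 and Prph. The fitted mean changes of these 83 genes ran from -0.67 for Rnd1 to 0.58 for Amigo2.

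**Figure D3:**
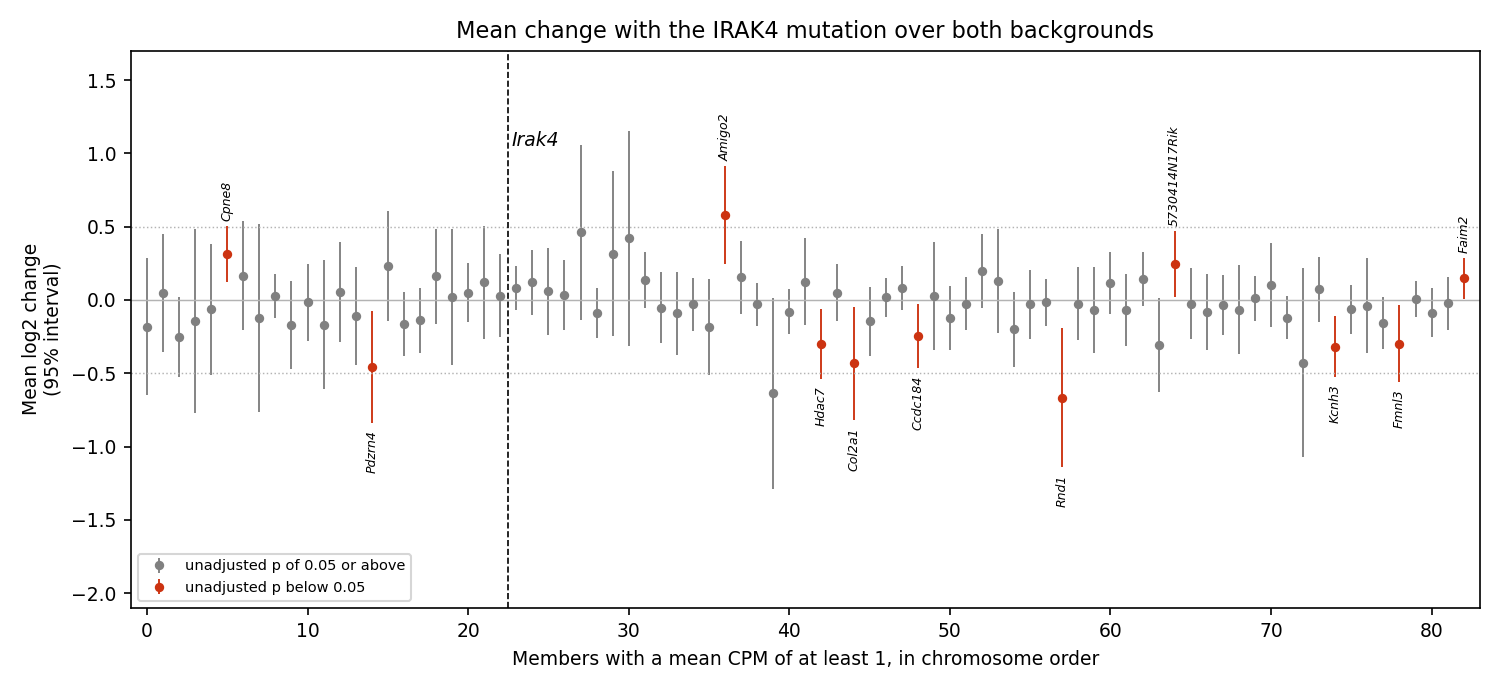
Mean log2 change with the IRAK4 mutation over both backgrounds (y axis) with its 95% interval for the 83 genes averaging 1 CPM or more, in chromosome order (x axis), with a dashed line at Irak4 and dotted lines at 0.5 on either side of 0. The 11 genes in red (13.3%) have an unadjusted p below 0.05, where 10.4% of all genes averaging 1 CPM or more do. None passes after adjustment, and 78 of the 83 intervals stay within 1.

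By position, 0 of the 13 genes within 1 Mb of Irak4 had an unadjusted p below 0.05 in any of the 2 comparisons or the mean change, and 3 of the 42 genes within 2 Mb did for the mean change (7.14%), where 8.86% of all genes tested did. So few genes do not set the stretch apart from that background. The 0 of 13 also depended on the fit, since the unadjusted p of Twf1 for the mean change was 0.0373 without MRL-IRAK4-KD replicate 4, 0.0484 without both doubtful libraries and 0.00953 by limma-voom. By limma-voom it was 0.0221 for Twf1 without lpr and 0.0266 for Nell2 on the MRL background. The stretch from 4 to 5 Mb after Irak4 held 52 of the 160 genes. Of these 52, 9 had an unadjusted p below 0.05 for the mean change, out of 18 in the interval, where 8.86% of all genes did. On the MRL background 10 of the 52 did, against 11.4% of all genes, and without lpr 2 did, against 3.8%. Whether this stretch differs from the background was not tested. On the MRL background, 32 of the 46 genes before Irak4 were lower in the mutant and 13 higher, with a median change of -0.21. After Irak4 54 were lower and 59 higher, and over all genes tested 19109 were lower and 18598 higher. Without MRL-IRAK4-KD replicate 4, 27 of the genes before Irak4 were lower and 18 higher, with a median of -0.11. Without both doubtful libraries 24 were lower and 19 higher, with a median of -0.050. By limma-voom 25 were lower and 21 higher, with a median of -0.055. Without lpr, 21 of these 46 genes were lower and 25 higher, and 26 were lower and 17 higher without both doubtful libraries. Over all genes tested 19515 were lower and 17888 higher in that comparison. For comparison, 216 genes were tested within 5 Mb of Ccl21b on chromosome 4, an interval chosen after its values were seen. They held 20 calls on the MRL background (9.26%, all genes 0.0972%) and 16 without lpr (7.41%, all genes 0.147%), all of them lower in the mutant.

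Among genes of adhesion, synapse and neuronal survival, 10 of the 160, 7 had a higher and 3 a lower mean change, with a median of 0.06, and 0 were called. Amigo2, 2.66 Mb after Irak4, encodes a leucine-rich adhesion protein that marks neurons of hippocampal area CA2. It had 26.6, 15.9, 16.6 and 16.1 CPM in MRL replicates 1 to 4 and 32.4, 23.2, 27.9 and 44.2 CPM in MRL-IRAK4-KD replicates 1 to 4. The 3 C57BL/6 libraries had 21.2, 26.1 and 22.8 CPM and the 3 IRAK4-KD libraries 35.7, 27.9 and 28.5 CPM. The IRAK4-KD libraries lay above the C57BL/6 libraries, and on the MRL background only MRL replicate 1 exceeded the lowest mutant library. The change was 0.77 (SE 0.20) on the MRL background and 0.40 (SE 0.23) without lpr, and the mean change of 0.58 (SE 0.16, 95% interval 0.25 to 0.91) had an unadjusted p of 0.00231 and an edgeR adjusted p of 0.28. DESeq2 gave an adjusted p of 0.0424 and limma-voom with quality weights 0.0365. Without both doubtful libraries the mean change was 0.51 with an edgeR adjusted p of 0.23. The start of Amigo2 shares 181 bases with Pced1b on the opposite strand, and reads there cannot be told apart.

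Cpne8 encodes copine-8, a protein that binds membranes in the presence of calcium, and lies 3.86 Mb before Irak4. It had 27.4, 23.6, 25.8 and 20.4 CPM in the MRL libraries and 27.2, 28.4, 28.4 and 33.7 CPM in the MRL-IRAK4-KD libraries. The C57BL/6 libraries had 20.4, 23.1 and 25.3 CPM and the IRAK4-KD libraries 29.3, 26.3 and 32.4 CPM. Groups were apart without lpr, and overlapped on the MRL background through MRL replicate 1. The change was 0.28 (SE 0.12, unadjusted p = 0.0328) with lpr and 0.36 (SE 0.13, unadjusted p = 0.0195) without it, so that 1 of the 160 genes (0.625%) had an unadjusted p below 0.05 in the same direction in both, where 0.814% of all genes did. The mean change of 0.32 (SE 0.09, 95% interval 0.12 to 0.51) had an edgeR adjusted p of 0.30. Without IRAK4-KD replicate 3, the change without lpr was 0.28 with an unadjusted p of 0.0855. The change with lpr was 0.20 (unadjusted p = 0.0743) without MRL-IRAK4-KD replicate 4 and 0.21 (unadjusted p = 0.0619) without both doubtful libraries, so that under each of these the low p in both comparisons was lost.

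Of the other genes of this group, Pdzrn4, a PDZ and RING finger protein 1.77 Mb before Irak4, was at 5.32, 9.55, 7.28 and 7.89 CPM in MRL and 5.37, 6.74, 6.88 and 3.04 CPM in MRL-IRAK4-KD libraries. It was at 7.41, 9.4 and 7.41 CPM in C57BL/6 and 5.18, 6.28 and 6.1 CPM in IRAK4-KD libraries, with a mean change of -0.46 (SE 0.18, edgeR adjusted p = 0.51). Faim2, which protects neurons from Fas-induced death and lies near the far end of the interval, had 362 to 399 CPM in MRL and 408 to 471 CPM in MRL-IRAK4-KD libraries. Those 2 groups did not overlap. The C57BL/6 range of 336 to 383 CPM and the IRAK4-KD range of 357 to 425 CPM did, through IRAK4-KD replicate 3. The mean change of Faim2 was 0.15 (SE 0.06, edgeR adjusted p = 0.55), and 0.17 (edgeR adjusted p = 0.29) without both doubtful libraries. Cntn1, a contactin of axons, had 343 CPM on average and a mean change of -0.11 (SE 0.16).

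**Figure D4:**
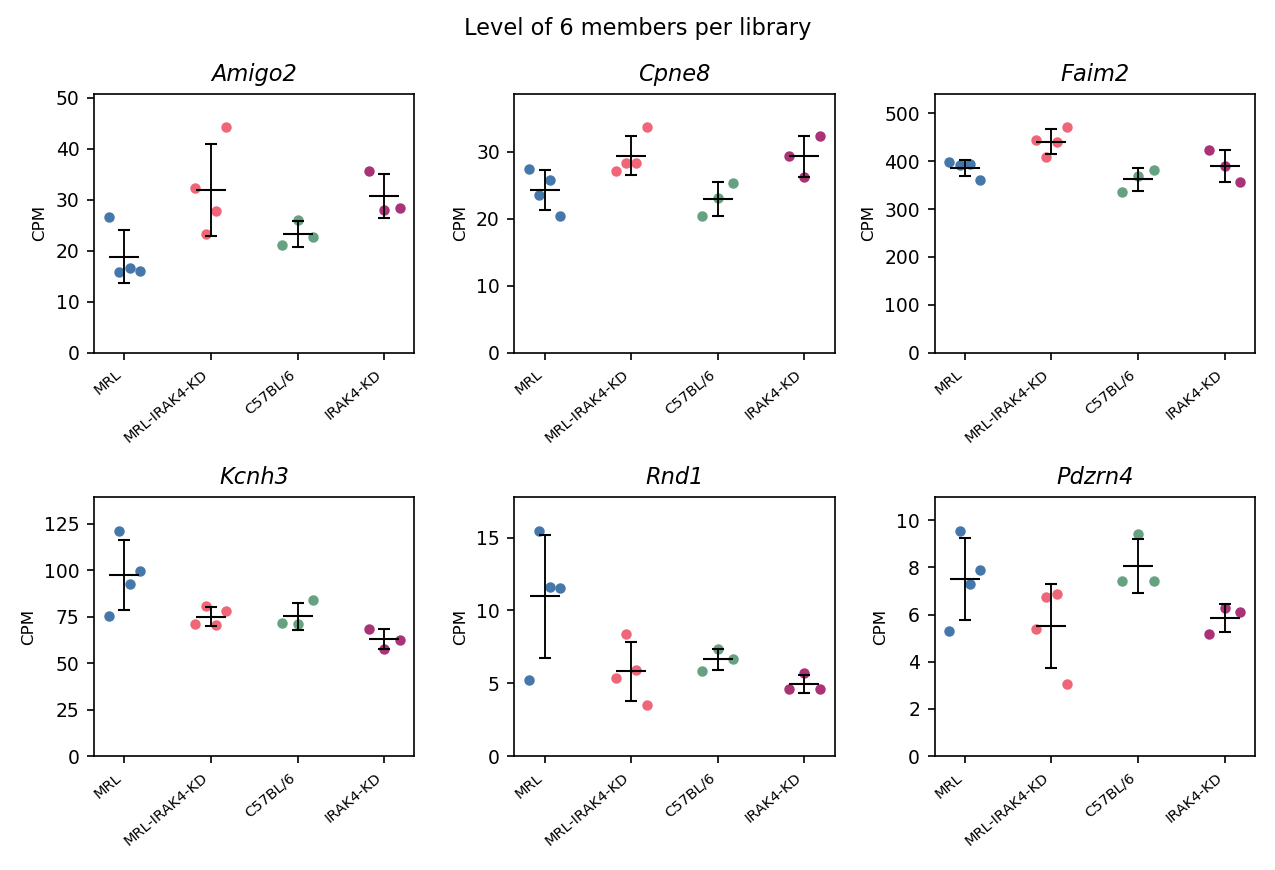
CPM (y axis, from 0) of 6 genes of the interval in the 4 groups, with 1 point per library, a horizontal line at the mean and bars of 1 SD. Amigo2, Cpne8 and Faim2 have higher means in both mutant groups, Kcnh3, Rnd1 and Pdzrn4 lower ones, and MRL replicate 1 sits near the mutant libraries in the panels of Amigo2, Cpne8, Kcnh3, Rnd1 and Pdzrn4.

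The cytoskeleton and traffic group held 15 genes, 6 with a higher and 9 with a lower mean change, a median of -0.03 and 0 calls. Ddn, which encodes the dendritic protein dendrin, had the highest level in the interval, 1731 CPM on average or 458 CPM per kilobase of exon, and ranged from 1283 to 2228 CPM over the libraries. Its mean change was 0.12 (SE 0.10), the highest of this group among genes of at least 1 CPM. The small GTPase gene Arf3 had 1050 to 1288 CPM in 13 libraries and 607 CPM in MRL-IRAK4-KD replicate 4, with a mean change of -0.07 (SE 0.14) that was 0.02 without that library. The tubulin genes Tuba1a, Tuba1b and Tuba1c, which are close copies of each other so that reads could be split between them, had mean changes of 0.01, -0.03 and -0.12, the sign for Tuba1a turning by limma-voom and with single mice left out. Rnd1 had the lowest mean change of the interval's better-measured genes. It was at 5.25, 15.5, 11.6 and 11.5 CPM in MRL and 5.38, 8.41, 5.93 and 3.53 CPM in MRL-IRAK4-KD libraries. The C57BL/6 libraries had 5.86, 7.35 and 6.69 CPM and the IRAK4-KD libraries 4.61, 5.68 and 4.6 CPM. The mean change was -0.67 (SE 0.22, 95% interval -1.14 to -0.19, edgeR adjusted p = 0.43), and without both doubtful libraries -0.55 (edgeR adjusted p = 0.43). MRL replicate 1 was the lowest of its group for Rnd1 and the highest for Amigo2.

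In the group of transporters and channels, 11 genes, 3 had a higher and 8 a lower mean change, with a median of -0.03 and 0 calls. Kcnh3, a voltage-gated potassium channel of forebrain neurons 4.64 Mb after Irak4, had 75.6, 121, 92.7 and 99.6 CPM in MRL and 71, 80.5, 70.7 and 78.2 CPM in MRL-IRAK4-KD libraries. It had 71.5, 70.8 and 83.8 CPM in C57BL/6 and 68.5, 57.9 and 62.3 CPM in IRAK4-KD libraries, which did not overlap. Its mean change was -0.32 (SE 0.10, 95% interval -0.52 to -0.11, edgeR adjusted p = 0.36), and -0.32 (edgeR adjusted p = 0.29) without both doubtful libraries. Slc48a1, a heme transporter, had a mean change of 0.13 (SE 0.14), which was -0.03 without MRL-IRAK4-KD replicate 4, where it stood at 210 CPM against 89.1 to 115 CPM in the other libraries. Aqp2, the water channel of the kidney collecting duct, had 31 and 17 counts in MRL-IRAK4-KD replicates 1 and 3, 5 and 7 counts in C57BL/6 replicates 1 and 3, and 0 counts in the other 10 libraries, so no change is given for it.

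**Figure D5:**
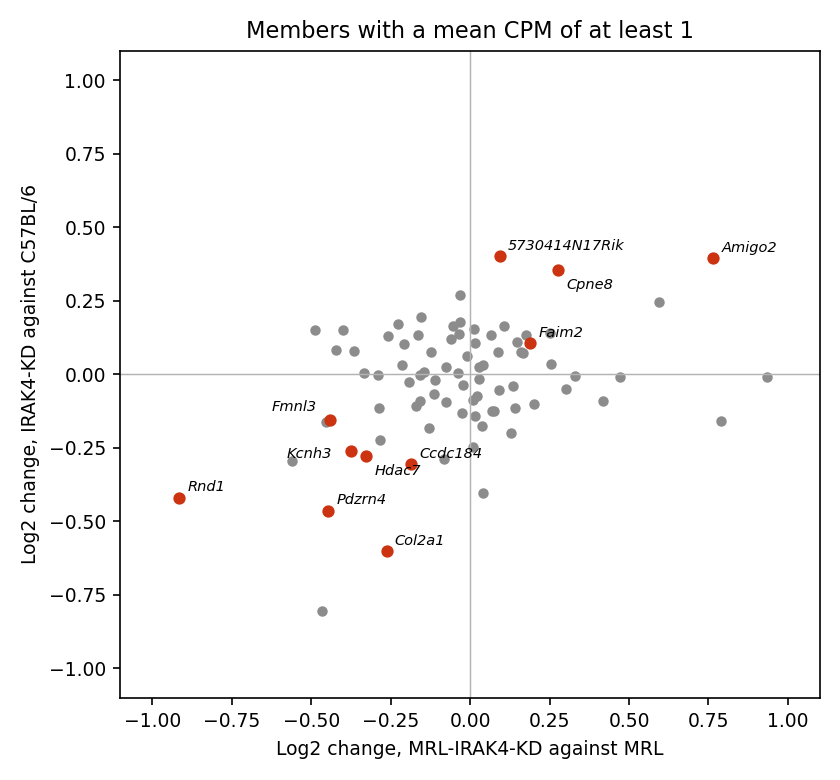
Log2 change of the 83 genes averaging 1 CPM or more in MRL-IRAK4-KD against MRL (x axis) and in IRAK4-KD against C57BL/6 (y axis), which share no library. The 11 genes named in red (13.3%, against 10.4% of all genes averaging 1 CPM or more) have an unadjusted p below 0.05 for the mean change. All 11 lie in the quadrants of equal direction, which averaging favours. So do 42 of the 83 genes (50.6%), against 52.9% of all genes at that level.

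Genes of chromatin, transcription and RNA numbered 18, with 6 higher, 12 lower, a median mean change of -0.04 and 0 calls. Ccnt1, cyclin T1 of the elongation factor P-TEFb, had the highest mean change of them, 0.20 (SE 0.12), or 0.071 without MRL-IRAK4-KD replicate 4, with 85 CPM in MRL-IRAK4-KD replicate 4 and 44.9 to 54.6 CPM in the other 13 libraries. Kmt2d, a histone H3 lysine methyltransferase, had the lowest, -0.31 (SE 0.15). It had 132 to 146 CPM in MRL and 59.7 to 125 CPM in MRL-IRAK4-KD libraries, which did not overlap. The C57BL/6 range of 125 to 181 CPM and the IRAK4-KD range of 116 to 154 CPM did, through IRAK4-KD replicate 3. Without both doubtful libraries, its mean change was -0.28 (edgeR adjusted p = 0.24). The change was then -0.26 (edgeR unadjusted p = 0.0294) with lpr and -0.30 (edgeR unadjusted p = 0.0356) without lpr. Kmt2d thus had a low p in the same direction in both comparisons there, where Cpne8 did not. Hdac7, a class II histone deacetylase, had a mean change of -0.30 (SE 0.11).

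Secreted signals, second messengers and metabolism were represented by 14 genes, 6 with a higher and 8 with a lower mean change, a median of -0.07 and 0 calls. Prkag1, a regulatory subunit of AMP-activated kinase, had the highest of those above 1 CPM, 0.14 (SE 0.09), or 0.078 without MRL-IRAK4-KD replicate 4, and its MRL-IRAK4-KD libraries, at 38.8 to 54.1 CPM, all lay above its MRL libraries, at 35.2 to 37.3 CPM. Endou, an endoribonuclease, had the lowest, -0.64 (SE 0.30), at 0.51 to 2.4 CPM over all libraries. Wnt1 and Wnt10b, ligands of the Wnt pathway, lie beside each other and were scarce, at 0.216 and 0.763 CPM on average. Wnt1 was at 0.247 to 0.4 CPM in MRL and 0.124 to 0.21 CPM in MRL-IRAK4-KD libraries, without overlap, and its mean change was -0.90 (SE 0.32, edgeR adjusted p = 0.46). The 5 groups cover 68 of the 160 genes and leave 92, most of them noncoding, in no group.

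Transcripts of the interval gave no call either. Of 450 transcripts of 159 genes, 0 had an adjusted p below 0.05 for the mean change, where 0.0465% of all 105421 transcripts tested did, and 21 (4.67%) had an unadjusted p below 0.05 where 6.13% did. The lowest p belonged to Amigo2-202, with a mean change of 0.72 (SE 0.22, edgeR adjusted p = 0.81), which was at 12.7 to 22.4 CPM in MRL and 18.8 to 48.5 CPM in MRL-IRAK4-KD libraries.

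Just outside the interval, at -5.22 Mb from Irak4 and thus before it, a gene had 0 counts in every mutant library. Adm2 (89322720 to 89324731), which encodes the peptide hormone adrenomedullin 2, is not among the 160 genes and was chosen after its values were seen. It had 59, 13, 17 and 28 counts in MRL libraries, 13, 14 and 34 counts in C57BL/6 libraries, and 0 counts in each of the 7 mutant libraries. Of 38070 genes tested, 1 was at 0 in all mutant libraries and above 0 in all intact ones, and 0 showed the opposite. Over pooled libraries, with the mutant libraries set at 3 counts in place of 0, Adm2 was 57.3-fold lower in the mutant. The same ratio was 31.1-fold on the MRL background and 26-fold without lpr. These ratios are not lower bounds, since a deposited count is not a single read. Each library held more counts than the reads per sample given in the paper's methods, and the spread between mice was not included. Whether the gene is missing, not transcribed or not counted in the mutant libraries was not tested. Its mean change had an edgeR adjusted p of 0.0126, and 0.0155 without both doubtful libraries. It was 0.0501 without C57BL/6 replicate 2, at most 0.0463 without any other single library, and 0.111 with the replicate number as a block. Adm2 was scarce, at no more than 0.127 CPM in any library. The 250 bases before its start, shown because the gene was listed at 0 in the mutant libraries, held no CCAAT, no GC box and 4 CpG at 52.8% GC, against a median of 6 CpG in all promoters.
Adm2, chr15:89322470-89322719, plus strand: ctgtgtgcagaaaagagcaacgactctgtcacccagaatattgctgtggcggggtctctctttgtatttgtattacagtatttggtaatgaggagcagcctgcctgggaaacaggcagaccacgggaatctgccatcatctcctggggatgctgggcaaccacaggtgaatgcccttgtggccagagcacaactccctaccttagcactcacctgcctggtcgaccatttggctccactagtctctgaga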

How the data were processed

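Per the submitters' processing notes and the paper's methods, HISAT2 2.1.0, SAMtools 1.9 and StringTie 2.1.0 were run on mm10. The deposited values are whole-number counts for genes and for transcripts, not normalized by the authors. The annotation is not named in the sources used here, and the identifiers are those of GENCODE M21. The paper's methods give a SMART-seq and NexteraXT single-end preparation, the labels a KAPA HyperPrep mRNA kit. Rows other than Ensembl genes held at most 0.188% of counts and were left out.

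A gene entered the fit if its 14 libraries summed to 10 counts or more. The fit was edgeR 4.0.16 (R 4.3.3, robust quasi-likelihood, TMM), with Benjamini-Hochberg adjustment of p across all fitted genes. DESeq2 1.42.0 and limma 3.58.1 were alternatives, with other scalings, filters, a replicate block and each mouse left out. Single values were also compared by a 2-sided exact permutation test of log2(CPM + 0.1) within backgrounds. Groups came from the deposited labels.

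The interval, the 5 gene groups and the markers were chosen with earlier results of these data known. Genes named are the 5 nearest coding genes on each side, those with an unadjusted p below 0.05 in both comparisons, the 5 coding genes of highest CPM, and the highest and lowest mean change of each group above 1 CPM. Cntn1, Hdac7, Tuba1b, Tuba1c, Wnt1, Wnt10b, Aqp2, 4833422M21Rik, Adm2 and the genes named only for a wide interval or in red were added after their values were seen. Columns of sequencing lanes were not used. Figures were drawn with matplotlib 3.10.9.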

Additional observations from a re-analysis of the deposited data

Results flagged for a closer look

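A library far from the other 3 of its group was looked for in 51 groups of 4 libraries, for the named genes, Irak4 and Adm2, with Dixon's ratio above its 95% critical value. Chance alone picks out about 1 in 20 such groups, and 11 libraries were found. Of these, 7 were MRL-IRAK4-KD replicate 4, the library whose choroid plexus markers were highest; the part of that difference in these values was not tested. It was low for Prickle1 (56.1 CPM against 78.6 to 81.5), Pphln1 (9.77 CPM against 34.4 to 35.5) and Twf1 (43.3 CPM against 52.2 to 53.9). It was high for Zcrb1 (97.2 CPM against 44.2 to 49.6), Slc48a1 (210 CPM against 107 to 114), Ccnt1 (85 CPM against 47.7 to 50.1) and Prkag1 (54.1 CPM against 38.8 to 40.7). MRL replicate 1 was high for Ddn (2228 CPM against 1565 to 1673), Arf3 (1254 CPM against 1128 to 1135) and Amigo2 (26.6 CPM against 15.9 to 16.6). MRL replicate 4 was low for Faim2 (362 CPM against 393 to 399). The change with the mutation was not called different between the 2 backgrounds for any of the 160 genes, where 5 had an unadjusted p below 0.05.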

How the results depend on the processing

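The count of 0 genes called by edgeR held in both comparisons, the mean change, the difference between backgrounds and the lpr comparison under RLE scaling, library size only, no filter, filterByExpr, the replicate block and each mouse left out. It also held with only the groups of the comparison, run for both comparisons and lpr, and with the transcript table summed per gene, run for the mean change. DESeq2 called 1 gene on the MRL background and 2 for the mean change, against 1.04% and 1.34% of all genes. By limma-voom with quality weights it was 1 and 1, against 0.559% and 1.08% of all genes. Counts at an unadjusted p below 0.05 moved more, and the share of all genes at that p moved too. On the MRL background, 20 became 8 with only the groups of the comparison (5.33%, all genes 6.64%). With 1 mouse left out it was 7 to 24, the highest without MRL-IRAK4-KD replicate 2 (15%, all genes 15.5%). It was 11, 10 and 7 without MRL replicates 2, 3 and 4 (6.96%, 6.25% and 4.38%, all genes 8.34%, 7.42% and 6.98%). Without lpr, 7 became 18 by limma-voom (11.2%, all genes 9.17%) and 14 with only the groups of the comparison (9.27%, all genes 6.74%). With 1 mouse left out, the lowest was 1, without IRAK4-KD replicate 3 (0.633%, all genes 2.68%). The highest was 13, without MRL-IRAK4-KD replicate 4 (8.12%, all genes 6.96%). It was 3, 4 and 3 without C57BL/6 replicates 1 and 3 and IRAK4-KD replicate 2 (1.89%, 2.53% and 1.88%, all genes 3.35%, 3.68% and 3.06%). For the mean change, 18 became 30 by limma-voom (18.8%, all genes 15%) and 9 to 25 with 1 mouse left out. It was 9 without MRL replicate 2 (5.7%, all genes 7.42%) and 25 without MRL-IRAK4-KD replicate 4 (15.6%, all genes 11.6%). Without C57BL/6 replicate 1 or IRAK4-KD replicate 1 it was 11 (6.92% each, all genes 6.81% and 7.12%). For the difference between backgrounds, 5 became 3 by DESeq2 (1.88%, all genes 3.87%) and 9 by limma-voom (5.62%, all genes 7.89%). It became 2 by filterByExpr (1.5%, all genes 3.39%) and 3 without both doubtful libraries (1.9%, all genes 4.24%). With 1 mouse left out it was 2 to 8, the highest without MRL-IRAK4-KD replicate 2 (5%, all genes 6%). For lpr, 11 became 19 by limma-voom, 17 without both doubtful libraries and 2 to 17 with 1 mouse left out. Transcripts at an unadjusted p below 0.05 numbered 15 to 36 with 1 mouse left out, the highest without MRL-IRAK4-KD replicate 4. Of 24 named genes, 7 had an exact permutation p below 0.05, and 8 without IRAK4-KD replicate 3, a count that supports nothing, since some of these genes were named for their change. The cause of these shifts was not tested.

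The mean change of 17 of the 24 named genes kept its direction under each alternative. By limma-voom it turned to -0.0034 for Zcrb1, -0.029 for Dbx2, 0.0057 for Arf3, -0.0093 for Tuba1a and -0.0068 for Slc48a1, to -0.058 for Pphln1 under the replicate block, and to 0.045 for Arf3 without both doubtful libraries. With 1 mouse left out it ran from -0.026 to 0.10 for Pus7l, -0.044 to 0.16 for Pphln1, -0.0090 to 0.22 for Zcrb1, -0.059 to 0.092 for Dbx2, -0.12 to 0.024 for Arf3, -0.033 to 0.042 for Tuba1a and -0.026 to 0.16 for Slc48a1. Of the genes that kept their direction, it ran from 0.014 to 0.22 for Adamts20, 0.018 to 0.15 for Nell2, 0.017 to 0.10 for Prickle1, 0.071 to 0.24 for Ccnt1 and 0.078 to 0.18 for Prkag1.

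Deviations of same-numbered libraries correlated at -0.26 to 0.385, over 0.1 in 5 of 19 pairs, and a pair of unlike numbers reached 0.417. Such correlations cannot show whether the mice were paired by litter or cage. The replicate block called 0 genes of the interval. It gave 18, 10 and 21 genes at an unadjusted p below 0.05 on the MRL background, without lpr and for the mean change. These were 11.2%, 6.25% and 13.1%, against 9.32%, 3.53% and 7.96% of all genes. Widening the interval to 10 Mb, chosen after seeing the data, gave 11.1% of 413 genes at an unadjusted p below 0.05 for the mean change, and 1 call, Adm2. What depth limits was not tested.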

Other observations

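The noncoding gene 4833422M21Rik, 1.65 Mb after Irak4 and scarce, was chosen after its values were seen. It was the only gene of the 160 whose groups did not overlap in either background with all 14 libraries. Without IRAK4-KD replicate 3, Faim2 and Kmt2d also separated in both backgrounds. 4833422M21Rik had 0.467 to 0.67 CPM in MRL and 0.692 to 0.887 CPM in MRL-IRAK4-KD libraries. It had 0.804 to 0.861 CPM in C57BL/6 and 0.991 to 1.33 CPM in IRAK4-KD libraries. Its mean change was 0.44 (SE 0.14), with an adjusted p of 0.40 by edgeR and 0.0325 by DESeq2. The C57BL/6 libraries lay within the range of the MRL-IRAK4-KD libraries. Gm44579 had 442 counts in MRL-IRAK4-KD replicate 1, 228 counts in C57BL/6 replicate 1 and 0 counts in the other 12 libraries. Olfr288, the gene before it by position, had its lowest counts there, 5 and 106, against 169 to 468 counts in the other 12 libraries. Whether the same reads were counted under either name was not tested. Col2a1, a collagen of cartilage also chosen after its values were seen, had 1.9 to 2.87 CPM in C57BL/6 and 1.42 to 1.73 CPM in IRAK4-KD libraries, without overlap, and its mean change was -0.43 (SE 0.18, edgeR adjusted p = 0.528).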
